A study of Arabidopsis thaliana with 4 samples.

Results

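The genes described here are 32 nuclear genes of Arabidopsis thaliana, of 33977 genes counted, that encode photosystem I, the soluble and membrane electron carriers around it, and the chloroplast ATP synthase. They were chosen by locus, by the complex their products belong to. They comprise 12 core subunits of photosystem I (PSAD to PSAO), 6 antenna proteins (LHCA1 to LHCA6), 4 small subunits of photosystem II (PSBW, PSBX, PSBY and PSBTN), 7 electron carriers (PETC, the plastocyanins PETE1 and PETE2, the ferredoxins FD1 and FD2, and the reductases FNR1 and FNR2) and 3 ATP synthase subunits (ATPC1, ATPD and ATPG). All 32 loci were found in the RefSeq annotation of TAIR10.1. Some of its product names are broader than the roles given here. PETE2 is named there as a cupredoxin superfamily protein and FD2 as a 2Fe-2S ferredoxin-like superfamily protein.

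Messenger RNA came from 2 single plants that overexpressed PPD3, a PsbP-domain protein, in the Col-0 background, the PPD3_OE group, and from 2 single wild-type plants of the accession Col-0. Both genotypes grew on soil at 22 °C under 16 h of light at 120 to 150 µmol m-2 s-1 and were frozen when the flowering stem emerged, with no other treatment. The labels do not give the promoter that drives PPD3, nor whether the PPD3_OE plants are of 1 transgenic line. They speak of the entire plant in one field and of the rosette in another.

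Photosystem I takes electrons from plastocyanin in the thylakoid lumen and, driven by light, hands them to ferredoxin in the stroma, from which ferredoxin-NADP reductase makes NADPH. Plastocyanin is reduced by the cytochrome b6f complex, whose Rieske protein is PETC, and the proton gradient built up along the way drives the ATP synthase. The reaction centre proteins and most b6f and ATP synthase subunits are encoded in the plastid, while the genes followed here are nuclear and their proteins are imported into the chloroplast.

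Levels are CPM, gene counts scaled to a common library total, after TMM scaling, which evens out the libraries using most of their genes. Gene counts were 40727172 and 34793720 in the PPD3_OE plants, against 36990201 and 33771093 in the Col-0 plants, and the least counted value of any of the 32 genes was 1897 reads (LHCA6, Col-0 plant 2), so the spread between plants and not counting error sets the precision. PPD3 itself, taken as AT1G76450, had 2836 and 3264 CPM in PPD3_OE plants, against 103 and 70.7 CPM in Col-0 plants, the direction the labels give. Markers of other tissues and states, taken as summed CPM of short lists, also differed between the plants. The 6 leaf markers, all tested, summed to 23948 and 27204 CPM in PPD3_OE plants, against 20316 and 14521 CPM in Col-0 plants. The 5 markers of dividing cells summed to 97.4 and 93.9 CPM in PPD3_OE plants, against 50.4 and 43.7 CPM in Col-0 plants. The 4 tested of 5 senescence markers summed to 15.3 and 10.97 CPM in PPD3_OE plants, against 180.2 and 352 CPM in Col-0 plants, and the defining marker SAG12, too low to be tested, had counts of 1 and 0 in PPD3_OE plants, against 179 and 7 in Col-0 plants. The 5 stem wall markers summed to 59.7 and 66.4 CPM in PPD3_OE plants, against 62.9 and 155 CPM in Col-0 plants, with the wall regulator SND1 at counts of 0 and 0 in PPD3_OE plants, against 24 and 56 in Col-0 plants. The 3 tested of 6 root markers summed to 145 and 130.3 CPM in PPD3_OE plants, against 114 and 107 CPM in Col-0 plants. NRT1.1 made up most of these root sums (93.7 and 92.1 CPM in PPD3_OE plants, against 65.95 and 57.3 CPM in Col-0 plants), and PIP2;4 was also higher. PYK10 had a negative log2 fold change of -0.20, with 46.55 and 32.2 CPM in PPD3_OE plants, against 44.88 and 45.55 CPM in Col-0 plants. The 5 flower markers summed to 19.7 and 12.8 CPM in PPD3_OE plants, against 11.9 and 5.89 CPM in Col-0 plants, and the 1 tested of 3 pollen markers stood at up to 0.233 CPM in PPD3_OE plants, against up to 1.005 CPM in Col-0 plants. Leaf markers had the largest of these sums in every plant. The lists hold genes of unlike level, so the sums do not rank tissues within a plant. Col-0 plant 2 had the lowest leaf sum and the highest stem wall and senescence sums, but single markers went otherwise. The leaf marker LHCB1.1 was at 1717 CPM in Col-0 plant 2 and 1172 CPM in Col-0 plant 1. The senescence marker SEN1 made up 224 of the 352 CPM in Col-0 plant 2, while SAG13, like SAG12, was higher in Col-0 plant 1 (78.5 CPM) than in Col-0 plant 2 (52.4 CPM). Whether these marker differences reflect tissue or age, and their part in the values below, was not tested. In whole tissue fewer cells of a type and less RNA per cell cannot be told apart.

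The genes as a group stood somewhat higher in PPD3_OE plants. Their CPM summed to 36274 and 39861 in PPD3_OE plants, against 36539 and 29309 in Col-0 plants, so the Col-0 plants differed from each other by more than PPD3_OE plant 1 differed from Col-0 plant 1. Of the 32 genes, 27 had a positive log2 fold change (PPD3_OE over Col-0), where 51.2% of the 19919 genes tested did. The median was 0.31 over the 32 genes, from -0.37 to 1.12, against 0.01 over all genes tested. In 18 genes both PPD3_OE plants lay above both Col-0 plants, where 33.9% of all genes did so, and in 3 genes (PSAD2, LHCA1 and LHCA4) both lay below both Col-0 plants, where 33% of all genes did. None of the 32 passed edgeR's quasi-likelihood test at an adjusted p under 0.05 (Benjamini-Hochberg over 19919 genes), a threshold that 0.00502% of all genes, a single gene, passed. At an unadjusted p under 0.05, edgeR gave 3 of the 32 as higher (PSAH2, FD1 and ATPD) and 0 as lower, beside 16.1% and 17% of all genes. At an adjusted p under 0.10, edgeR gave 2 as higher (PSAH2 and ATPD) and 0 as lower, beside 9.56% and 11.2% of all genes. The other count test, DESeq2, called the same 3 genes higher, where 8.41% of all genes with an adjusted p were called higher, and 1 gene lower (LHCA1), where 9.72% were. The share called in either test is near or below that over all genes, while the share of positive fold changes is above it.

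**Figure D1:**
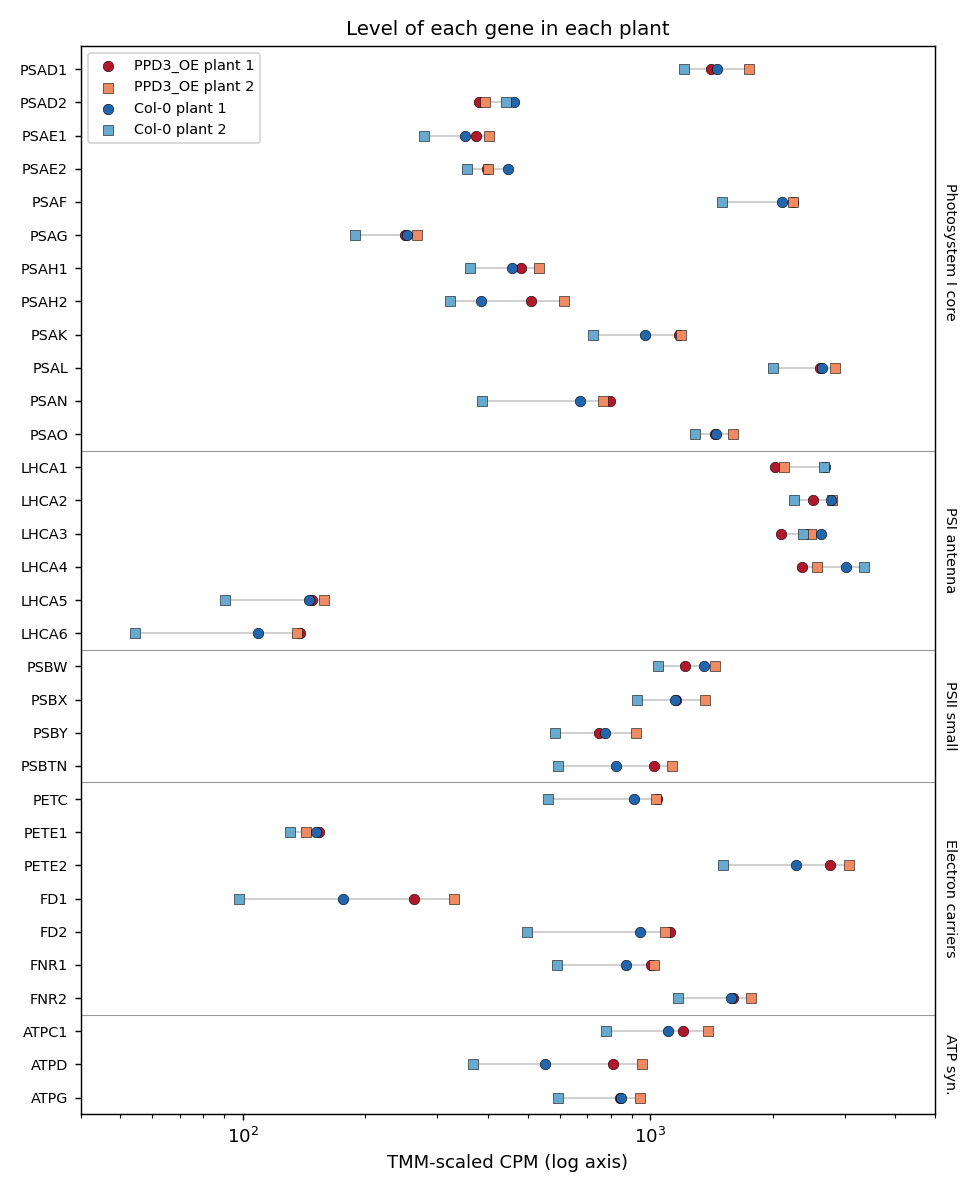
Level of each of the 32 genes in each plant, in TMM-scaled CPM on a log axis, in 5 groups by role, with PPD3_OE plants in red shades and Col-0 plants in blue shades. Col-0 plant 2 lies below Col-0 plant 1 in 31 of 32 genes, and in PSAD2, LHCA1 and LHCA4 both Col-0 points stand to the right of both PPD3_OE points.

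Much of the height of the group rested on Col-0 plant 2. That plant lay below Col-0 plant 1 in 31 of the 32 genes, where Col-0 plant 1 was the higher in 50.6% of all genes, and LHCA4 was the exception. The log2 difference of PPD3_OE plant 1 over plant 2 had a median of -0.13, and that of Col-0 plant 1 over plant 2 a median of 0.41. Both PPD3_OE plants lay above Col-0 plant 2 in 28 genes, where they did in 42.8% of all genes, and above Col-0 plant 1 in 18, where they did in 39.7% of all genes. The gap between the Col-0 plants was larger than the difference between the genotype means in 71.9% of the 32 genes, against 30.9% of the 19889 genes with a value in every plant. Without Col-0 plant 2 the median log2 fold change was 0.09, and without Col-0 plant 1 it was 0.49. DESeq2 called 24 of the 32 genes without Col-0 plant 1 (22 higher, and LHCA1 and LHCA4 lower), beside 22.5% of all genes with an adjusted p. It called 0 of the 32 without Col-0 plant 2, beside 2.7% of all genes, 2 without PPD3_OE plant 1, beside 8.97%, and 0 without PPD3_OE plant 2, beside 4.77%.

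The sequence just upstream of a gene is shown for the antenna pair that stood lower in PPD3_OE plants (LHCA1 and LHCA4), for the core gene with the smallest p (PSAH2) and for the plastocyanin pair, whose members differed most in level. Each sequence is from RefSeq TAIR10.1, runs 5′ to 3′ on the strand of its gene, ends at the base before the annotated start of the gene and holds no base of another annotated gene within the 250 bases searched. Capitals mark the G-box (CACGTG) and the I-box (GATAAG, or CTTATC on the other strand), both light-responsive promoter elements in plants. LHCA1 is from chr3:20341177-20341356 and LHCA4 from chr3:17495034-17495283, both on the minus strand. PSAH2 is from chr1:19454766-19454797 on the plus strand. PETE2 is from chr1:7043393-7043627 and PETE1 from chr1:28554931-28555033, both on the minus strand.
LHCA1: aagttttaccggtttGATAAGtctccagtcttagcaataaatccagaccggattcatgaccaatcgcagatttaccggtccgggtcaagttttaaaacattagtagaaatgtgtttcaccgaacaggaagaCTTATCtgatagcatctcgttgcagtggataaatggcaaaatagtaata
LHCA4: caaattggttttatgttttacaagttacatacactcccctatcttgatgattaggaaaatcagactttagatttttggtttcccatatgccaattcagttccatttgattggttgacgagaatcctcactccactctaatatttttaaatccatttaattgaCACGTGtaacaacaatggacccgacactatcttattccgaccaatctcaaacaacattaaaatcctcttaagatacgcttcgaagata
PSAH2: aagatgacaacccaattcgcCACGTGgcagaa
PETE2: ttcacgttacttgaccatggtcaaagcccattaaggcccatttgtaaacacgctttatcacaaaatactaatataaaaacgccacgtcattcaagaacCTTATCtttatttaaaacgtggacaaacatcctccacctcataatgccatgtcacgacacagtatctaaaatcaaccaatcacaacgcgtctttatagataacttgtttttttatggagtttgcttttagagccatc
PETE1: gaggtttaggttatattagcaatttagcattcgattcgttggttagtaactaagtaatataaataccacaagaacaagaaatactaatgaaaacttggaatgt
LHCA1 carried an I-box that began 165 bases and another that began 49 bases upstream of the start, while LHCA4 carried no I-box in the window and a G-box 88 bases upstream. So these 2 genes, which stood lower together, shared neither element. In the bases shown, PSAH2 had a G-box 12 bases upstream, PETE2 an I-box 137 bases upstream, and PETE1 neither. The PSAH2 window of 250 bases held a further G-box 67 bases and an I-box 84 bases upstream, beyond the bases shown. Over all 32 genes, 9 (28.1%) held an I-box in the 250 bases upstream, against 12.3% of 27443 promoters of the same length. For the G-box it was 5 of 32 (15.6%), against 6.49% of all promoters, and for the TATA box (TATAAA) 16 of 32 (50%), against 47.3%. The clock-related evening element (AAAATATCT) was found in 2 (6.25%), against 2.36%, and the CCA1-binding motif (AAAAATCT) in 3 (9.38%), against 6.69%. Both strands were searched, none of these motifs contains another, and some windows reach into a neighbouring gene. A match describes the letters only.

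Among the 12 core subunits of photosystem I, 10 had positive and 2 negative fold changes, with a median of 0.27, which was 0.08 without Col-0 plant 2 and 0.44 without Col-0 plant 1. In 6 genes both PPD3_OE plants lay above both Col-0 plants, beside 33.9% of all genes. The group summed to 12060 and 12994 CPM in PPD3_OE plants, against 11642 and 9062 CPM in Col-0 plants. PSAH2 (AT1G52230), which encodes a form of the subunit PsaH that helps bind the mobile antenna, had 510.2 and 616 CPM in PPD3_OE plants, against 384 and 322 CPM in Col-0 plants. Every PPD3_OE value was above every Col-0 value, with means of 563 ± 74.6 CPM in PPD3_OE plants and 353 ± 44.0 CPM in Col-0 plants (SD, n = 2 each). The log2 fold change was 0.67 ± 0.18 (SE), a 1.59-fold difference, with an adjusted p of 0.0945 in edgeR and 0.00982 in DESeq2. With a plant left out the log2 fold change of PSAH2 ran from 0.53 to 0.81. The DESeq2 call of PSAH2 did not hold in every such fit, and these fits keep a single plant of a genotype. Its paralog PSAH1 (AT3G16140) had 482 and 534 CPM in PPD3_OE plants, against 457 and 361 CPM in Col-0 plants, also without overlap but by less (0.31 ± 0.18, edgeR adjusted p = 0.293).

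In the subunits that face plastocyanin on the lumenal side, as in all 12 core genes, Col-0 plant 2 lay below Col-0 plant 1. The gap between the Col-0 plants was 0.80 on the log2 scale in PSAN and 0.49 in PSAF. Its median over the core genes was 0.34, and it was 0.42 in both PSAG and PSAK. PSAN (AT5G64040), a small lumenal subunit, had 796 and 766 CPM in PPD3_OE plants, against 673 and 387 CPM in Col-0 plants. Its PPD3_OE plants nearly coincided, and its log2 fold change of 0.56 ± 0.30 (edgeR adjusted p = 0.268) was 0.20 without Col-0 plant 2. PSAF (AT1G31330), which docks plastocyanin, had 2241 and 2238 CPM in PPD3_OE plants, against 2101 and 1501 CPM in Col-0 plants, a difference of 0.31 ± 0.24 on the log2 scale. PSAK (AT1G30380), at the antenna side of the core, had 1177 and 1192 CPM in PPD3_OE plants, against 970.3 and 726 CPM in Col-0 plants (0.48 ± 0.21, edgeR adjusted p = 0.192). For PSAF and PSAK the groups did not overlap either, while the other antenna-side subunit, PSAG (AT1G55670, 0.23 ± 0.19), and the subunits PSAL (AT4G12800, 0.23 ± 0.24) and PSAO (AT1G08380, 0.15 ± 0.18), which take part in binding the mobile antenna, had groups that overlapped.

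On the stromal side, where PsaD and PsaE form the docking place of ferredoxin, a PSAD paralog stood lower and a PSAE paralog higher in both PPD3_OE plants. PSAD1 (AT4G02770) had 1407 and 1745 CPM in PPD3_OE plants, against 1456 and 1213 CPM in Col-0 plants, and the groups overlapped (0.24 ± 0.22). PSAD2 (AT1G03130) had 379.5 and 394 CPM in PPD3_OE plants, against 462 and 442 CPM in Col-0 plants. It was the only core gene that lay lower in both PPD3_OE plants than in either Col-0 plant (-0.22 ± 0.13, adjusted p = 0.297 in edgeR and 0.266 in DESeq2), and its plants of 1 genotype lay close together. PSAD2 overlaps AT1G03140 on the same strand in the annotation, and its counts are 9.83 times those of that gene. The part of reads in the overlap in its level was not tested. PSAE1 (AT4G28750) had 373 and 402 CPM in PPD3_OE plants, against 352 and 278 CPM in Col-0 plants, without overlap (0.30 ± 0.17). PSAE2 (AT2G20260) had 397 and 399.7 CPM in PPD3_OE plants, both between the 447 and 355 CPM of the Col-0 plants, and its log2 fold change of -0.01 ± 0.17 turned positive under upper-quartile scaling (0.02) and without Col-0 plant 1 (0.14).

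The antenna split into a lower and a higher part. LHCA1 (AT3G54890) to LHCA4 (AT3G47470), the main light-harvesting proteins along one side of photosystem I, summed to 8982 and 9961 CPM in PPD3_OE plants, against 11112 and 10648 CPM in Col-0 plants, a ratio of 0.87. LHCA1 and LHCA4, which pair with each other in the complex, had the larger differences. LHCA1 had 2021 and 2125 CPM in PPD3_OE plants, against 2683 and 2677 CPM in Col-0 plants. The Col-0 plants were nearly equal and both above the PPD3_OE plants, with means of 2073 ± 73.6 CPM in PPD3_OE plants and 2680 ± 4.08 CPM in Col-0 plants (SD, n = 2 each). The log2 fold change was -0.37 ± 0.19, which is 1.29-fold lower, with an adjusted p of 0.245 in edgeR and 0.0369 in DESeq2. It kept its size whichever plant was left out in edgeR, from -0.41 to -0.33. DESeq2's call of LHCA1 did not hold in every fit with a plant left out, and such fits keep a single plant of a genotype.

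LHCA4 had 2353 and 2570 CPM in PPD3_OE plants, against 3018 and 3348 CPM in Col-0 plants. Here Col-0 plant 2, below Col-0 plant 1 in every other gene of the 32, was the highest plant, and both Col-0 plants lay above both PPD3_OE plants. Its log2 fold change of -0.37 ± 0.21 did not pass either test (adjusted p = 0.277 in edgeR and 0.0847 in DESeq2) and ran from -0.47 to -0.31 in edgeR with a plant left out. LHCA2 (AT3G61470) and LHCA3 (AT1G61520), the other pair of the antenna belt, had groups that overlapped, with log2 fold changes of 0.08 ± 0.22 and -0.13 ± 0.21, and that of LHCA2 turned negative (-0.09) without Col-0 plant 2.

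LHCA5 (AT1G45474) and LHCA6 (AT1G19150), minor antenna proteins that link photosystem I to the chloroplast NDH complex, stood on the other side. LHCA5 had 148 and 158 CPM in PPD3_OE plants, against 145 and 90.2 CPM in Col-0 plants (0.38 ± 0.26). LHCA6 had 138 and 136 CPM in PPD3_OE plants, against 109 and 54.5 CPM in Col-0 plants, and its log2 fold change of 0.75 ± 0.35 had an edgeR adjusted p of 0.218. Both were higher in each PPD3_OE plant, yet for LHCA6 Col-0 plant 1 lay 1.00 above Col-0 plant 2 on the log2 scale, the widest gap between Col-0 plants in the 32 genes.

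**Figure D2:**
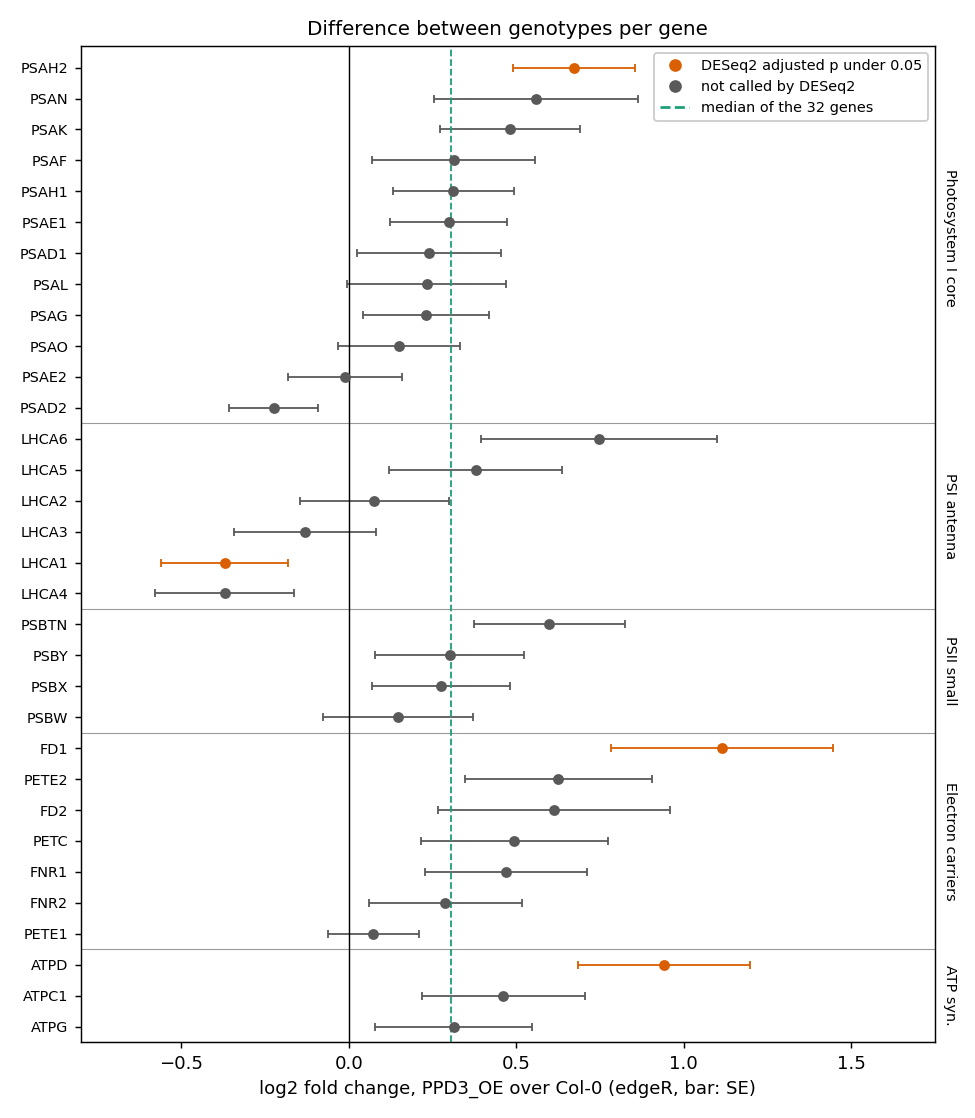
Log2 fold change of each gene, PPD3_OE over Col-0, from edgeR, with its SE as a bar, sorted within 5 groups by role, with genes called by DESeq2 in orange and the median of the 32 genes as a dashed line. FD1 (AT1G10960, 1.12), ATPD (AT4G09650, 0.94) and PSAH2 (0.67) lie to the right and LHCA1 (-0.37) to the left.

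The 4 small subunits of photosystem II, short membrane or lumenal proteins, all had positive fold changes, and none was called. Their median of 0.29 was 0.10 without Col-0 plant 2, 0.15 without PPD3_OE plant 2 and 0.45 without Col-0 plant 1. PSBTN (AT3G21055), a small lumenal subunit, had 1020 and 1130 CPM in PPD3_OE plants, against 825 and 594 CPM in Col-0 plants. Its groups did not overlap, and the 1.51-fold difference (0.60 ± 0.22) had an adjusted p of 0.153 in edgeR and 0.0592 in DESeq2. PSBX (AT2G06520) had 1154 and 1366 CPM in PPD3_OE plants, against 1153 and 929 CPM in Col-0 plants (0.28 ± 0.21), with 1 PPD3_OE plant about level with Col-0 plant 1. PSBY (AT1G67740) had 749.9 and 923 CPM in PPD3_OE plants, against 773 and 585 CPM in Col-0 plants (0.30 ± 0.22). PSBW (AT2G30570) had 1215 and 1446 CPM in PPD3_OE plants, against 1359 and 1044 CPM in Col-0 plants. For PSBY and PSBW the groups overlapped, and the log2 fold change of PSBW, 0.15 ± 0.22, turned to -0.05 without Col-0 plant 2.

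In 6 of the 7 electron carriers both PPD3_OE plants lay above both Col-0 plants, beside 33.9% of all genes. All 7 had positive fold changes. Their median of 0.49 was 0.20 without Col-0 plant 2 and 0.86 without Col-0 plant 1. Their CPM summed to 7945 and 8460 in PPD3_OE plants, against 6914 and 4564 in Col-0 plants, a ratio of 1.43. FD1, the less abundant of the leaf ferredoxins and the gene with the highest fold change of the 32, had 264 and 330.5 CPM in PPD3_OE plants, against 176 and 97.9 CPM in Col-0 plants. All PPD3_OE values were above all Col-0 values, with means of 297 ± 47.2 CPM in PPD3_OE plants and 137 ± 55.5 CPM in Col-0 plants (SD, n = 2 each). The 2.17-fold difference (1.12 ± 0.33 on the log2 scale) had an adjusted p of 0.107 in edgeR and 0.00968 in DESeq2. In edgeR it ran from 0.73 without Col-0 plant 2 to 1.57 without Col-0 plant 1. DESeq2's call of FD1 did not hold in every fit with a plant left out, where a genotype keeps a single plant. FD1 overlaps AT1G10950 on the same strand in the annotation, and its counts are 1.52 times those of that gene, so reads in the overlap make its level uncertain.

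FD2 (AT1G60950), the main leaf ferredoxin, had 1120 and 1088 CPM in PPD3_OE plants, against 946 and 498 CPM in Col-0 plants. Its PPD3_OE plants lay close together and above both Col-0 plants, which differed by 0.93 on the log2 scale, more than the fold change of 0.61 ± 0.35 (edgeR adjusted p = 0.283). PETE2 (AT1G20340), the major plastocyanin, had 2765 and 3077 CPM in PPD3_OE plants, against 2275 and 1513 CPM in Col-0 plants. That is a 1.54-fold difference without overlap (0.63 ± 0.28, adjusted p = 0.201 in edgeR and 0.0827 in DESeq2). PETE1 (AT1G76100), the minor plastocyanin, had 154 and 143 CPM in PPD3_OE plants, against 152 and 131 CPM in Col-0 plants, so the groups overlapped, and its log2 fold change of 0.07 ± 0.14 turned to -0.05 without Col-0 plant 2.

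PETC (AT4G03280), the Rieske protein, had 1042 and 1036 CPM in PPD3_OE plants, against 913 and 562 CPM in Col-0 plants (0.49 ± 0.28, edgeR adjusted p = 0.283). FNR1 (AT5G66190) had 1002 and 1022 CPM in PPD3_OE plants, against 871 and 590.2 CPM in Col-0 plants (0.47 ± 0.24). FNR2 (AT1G20020), the other leaf ferredoxin-NADP reductase, had 1599 and 1763 CPM in PPD3_OE plants, against 1581 and 1172 CPM in Col-0 plants (0.29 ± 0.23). In all 3, both PPD3_OE plants lay above both Col-0 plants, and Col-0 plant 2 was the lowest.

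The 3 ATP synthase genes had positive fold changes, with a median of 0.46 that was 0.21 without Col-0 plant 2 and 0.71 without Col-0 plant 1. Their CPM summed to 2862 and 3288 in PPD3_OE plants, against 2506 and 1738 in Col-0 plants, a ratio of 1.45. ATPD, the delta subunit that joins the catalytic head to the outer stalk, had 811 and 952 CPM in PPD3_OE plants, against 551 and 368 CPM in Col-0 plants. Every PPD3_OE plant lay above both Col-0 plants, with means of 881 ± 100.1 CPM in PPD3_OE plants and 459 ± 129.6 CPM in Col-0 plants (SD, n = 2 each). The 1.92-fold difference (0.94 ± 0.26) had an adjusted p of 0.0953 in edgeR and 0.00552 in DESeq2. With a plant left out the log2 fold change of ATPD ran from 0.66 to 1.25. DESeq2's call of ATPD did not hold in every such fit, where a genotype keeps a single plant.

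ATPC1 (AT4G04640), the gamma subunit at the turning shaft, had 1207 and 1389 CPM in PPD3_OE plants, against 1108 and 778 CPM in Col-0 plants (0.46 ± 0.24, edgeR adjusted p = 0.257). ATPG (AT4G32260), the b' subunit of the membrane stalk, had 844 and 946 CPM in PPD3_OE plants, against 848 and 593 CPM in Col-0 plants (0.31 ± 0.23), and its groups overlapped. The subunits of this enzyme therefore had unequal fold changes, with ATPD above ATPC1 and ATPG, a difference between genes that was not tested.

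**Figure D3:**
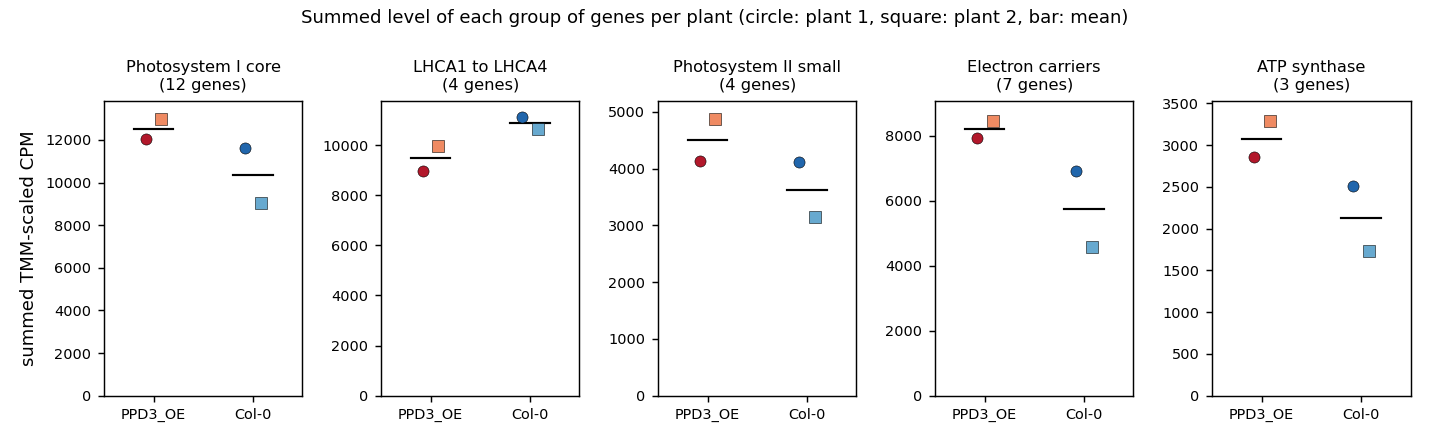
Summed TMM-scaled CPM of each group of genes in each plant, on axes from 0, with PPD3_OE left of Col-0, circles for plant 1, squares for plant 2 and a bar at the mean. The sums of LHCA1 to LHCA4 are lower in both PPD3_OE plants, and the other 4 sums are higher in the PPD3_OE means with Col-0 plant 2 lowest.

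For 6 of the proteins a pair of genes contributes transcripts, and the share of each gene within its pair is a measure in which a difference common to both genes cancels. In all 6 pairs the shares did not overlap between the genotypes. Among all genes tested, levels lay apart in 33.9% with PPD3_OE plants above and in 33% with them below. No such share was computed over other pairs of genes, so the 6 pairs are a description only. PSAD1 made up 78.8% and 81.6% of the PSAD transcripts in PPD3_OE plants, against 75.9% and 73.3% in Col-0 plants. PSAE1 made up 48.5% and 50.1% of its pair in PPD3_OE plants, against 44.0% and 43.9% in Col-0 plants. For PSAH the balance turned round, with PSAH1 at 48.6% and 46.4% in PPD3_OE plants, against 54.3% and 52.9% in Col-0 plants, so that PSAH2 gave the larger share of CPM in PPD3_OE plants only. FD1 made up 19.1% and 23.3% of the ferredoxin pair in PPD3_OE plants, against 15.7% and 16.4% in Col-0 plants, and FNR1 38.5% and 36.7% of its pair in PPD3_OE plants, against 35.5% and 33.5% in Col-0 plants. PETE1 was the minor form in every plant, with 5.28% and 4.45% of plastocyanin CPM in PPD3_OE plants, against 6.25% and 7.96% in Col-0 plants.

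The differences in share between genotype means ran from -6.10 points for PSAH1 to 5.56 points for PSAD1, with -2.24 points for PETE1 the one nearest to 0. An exact two-sided permutation test of 2 plants against 2 gave p = 0.333 for each pair, the smallest it can give, so these shares cannot pass a threshold of 0.05 in this design. With CPM divided by the length of the longest annotated transcript, the differences of the 6 pairs kept their direction. PSAH2 was then the larger part of its pair in all 4 plants (PSAH1 at 33.8% and 31.9% in PPD3_OE plants, against 39.1% and 37.7% in Col-0 plants). That order rests on the transcripts chosen, of 1300 bases for PSAH1 and 702 bases for PSAH2. The paralogs are 69.1% (PETE) to 80.3% (PSAH) identical over their aligned transcripts, and no stretch of 150 bases, the read length, was shared between the genes of a pair. Stretches of that length were shared with overlapping genes on the other strand, 44.7% of those in PSAH1, 18.2% in PSAE1, 4.52% in PSAH2 and 3.09% in FNR1, and, outside the pairs, 52.3% in PSAG. The library kit does not mark the strand. The genes behind the stretches in PSAH1 (AT3G16130), PSAE1 (AT4G28755) and PSAG (AT1G55673) had counts of 0 in all 4 plants, so no read was counted for them, and whether reads there were left out of the counts was not tested.

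**Figure D4:**
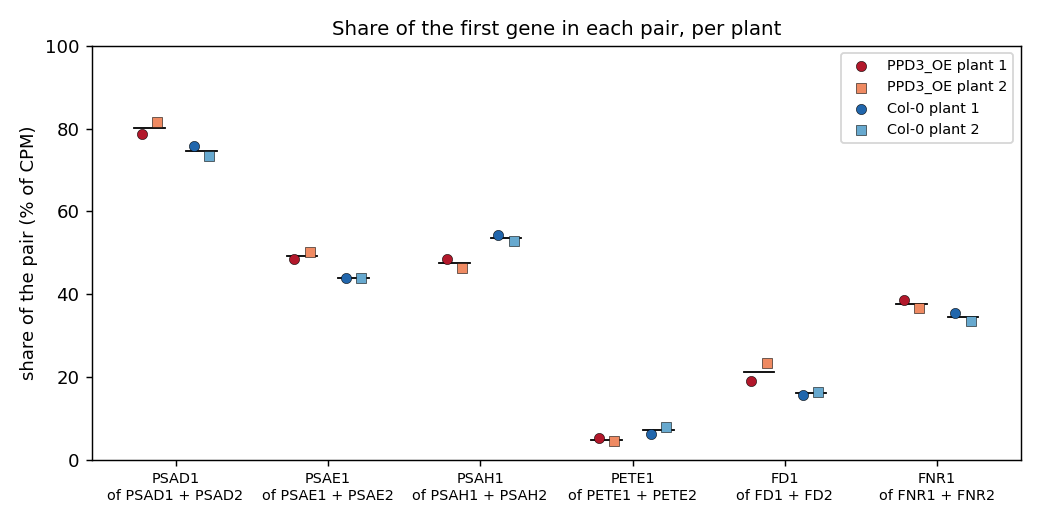
Share of the first-named gene in the CPM of its pair, in percent, for each of 6 pairs, with PPD3_OE plants left of Col-0 plants and a bar at the mean of each genotype. The PPD3_OE and Col-0 points are apart in every pair, with means that differ by -6.10 points for PSAH1 and 5.56 points for PSAD1.

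Levels can be compared between genes only per length of transcript. In CPM per kb, LHCA4 held rank 3 of the 32 transcripts by mean in PPD3_OE plants and rank 1 in Col-0 plants, at 1901 ± 118 in PPD3_OE plants and 2458 ± 179.9 in Col-0 plants (mean ± SD, n = 2 each). LHCA1 ranked 8 in PPD3_OE plants and 2 in Col-0 plants, at 1727 ± 61.3 CPM per kb in PPD3_OE plants and 2234 ± 3.402 in Col-0 plants. PSAL held rank 1 in PPD3_OE plants and 3 in Col-0 plants, at 2537 ± 156 CPM per kb in PPD3_OE plants and 2159 ± 419 in Col-0 plants. PETE2 held rank 2 in PPD3_OE plants and 9 in Col-0 plants, at 2168 ± 164 CPM per kb in PPD3_OE plants and 1406 ± 400.1 in Col-0 plants. PSAL held rank 1 in both PPD3_OE plants and in Col-0 plant 1, where it had 2455 CPM per kb and LHCA4 2331, so LHCA4 led the Col-0 mean through Col-0 plant 2. No difference in order was tested. In PPD3_OE plants the ranges of mean ± SD of PSAL and PETE2 did not overlap, while those of PETE2 and LHCA4 did. In Col-0 plants those of LHCA4 and LHCA1 did not overlap, while that of PSAL overlapped both. At the bottom, LHCA6 was the least abundant in both genotypes, at 118 ± 1.80 CPM per kb in PPD3_OE plants and 70.2 ± 32.99 in Col-0 plants, and LHCA5 and PETE1 lay next above it in both genotypes.

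Other nuclear genes of the pathway, 39 in 6 lists of assembly factors, partners and further carriers, of which 36 were tested, had mostly positive fold changes too. Of the 36, 30 were positive, beside 51.2% of all genes tested, and the median of 0.36 was 0.09 without Col-0 plant 2 and 0.59 without Col-0 plant 1. In 19 both PPD3_OE plants lay above both Col-0 plants, beside 33.9% of all genes, and in 2 below, beside 33%. EdgeR called 0 of the 36, with 5 at an unadjusted p under 0.05, all higher, beside 16.1% of all genes. DESeq2 called 3, all higher (PPD1, TIC62 and CCB1), beside 8.41% of all genes, so the counts of calls are no higher than over all genes. TIC62, which holds FNR at the thylakoid and in the envelope, had 257 and 311 CPM in PPD3_OE plants, against 184 and 136 CPM in Col-0 plants (0.83 ± 0.21, adjusted p = 0.0883 in edgeR and 0.00686 in DESeq2). PPD1, a PsbP-domain protein needed for assembly of photosystem I, had 42.3 and 52.0 CPM in PPD3_OE plants, against 32.4 and 20.7 CPM in Col-0 plants (0.83 ± 0.26, DESeq2 adjusted p = 0.0362). CCB1, a factor for binding a heme of cytochrome b6, had 94.8 and 104 CPM in PPD3_OE plants, against 74.2 and 54.9 CPM in Col-0 plants (0.62 ± 0.18, DESeq2 adjusted p = 0.0421). In each, both PPD3_OE plants lay above both Col-0 plants. These calls did not hold in every DESeq2 fit with a plant left out, where a genotype keeps a single plant.

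By list, the 7 photosystem I assembly factors were all positive (median 0.34), with Y3IP1 (0.62 ± 0.21) and PSA2 (0.37 ± 0.23) next after PPD1 by p. The 5 genes for b6f subunits and assembly were all positive (median 0.49), with CCB2 (0.49 ± 0.18) and CCB4 (0.54 ± 0.23) next after CCB1. The 5 ATP synthase assembly factors were also all positive (median 0.58), led by BFA3 (0.59 ± 0.22), BFA2 (0.66 ± 0.27) and PAB (0.58 ± 0.25). The list of cyclic electron flow and partners, not all of whose genes belong to that flow, was split, 4 positive and 4 negative (median 0.07). By p, CURT1B (0.62 ± 0.24) and PIFI (-0.22 ± 0.18) came next after TIC62 in it. The ferredoxin and thioredoxin system had a median of 0.37 over 6 genes, led by NTRC (0.59 ± 0.24), TRXF1 (0.39 ± 0.20) and FTRB (0.36 ± 0.19). Of 8 further carriers and isoforms 5 were tested (median 0.22), led by FDC2 (0.49 ± 0.18), RFNR1 (0.36 ± 0.21) and CYTC6A (0.22 ± 0.25). FD4 had 1 read in PPD3_OE plant 1 and 0 in the others, while FDC1 and ATPC2 are listed at 0 in all 4 plants and overlap other annotated genes. The 17 plastid-encoded genes of these complexes (psaA, petB, atpB and others) are listed at 0 in all 4 plants, as are all 133 plastid and 152 mitochondrial genes of the count files, so no level can be read for them.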

How the data were processed

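The deposited files, 1 for each plant, hold raw read counts of genes, which the authors left without normalization, as whole numbers with unequal totals show. Per the labels' protocols, the TruSeq RNA kit used keeps no strand, and reads were single, of 150 bp. The submitters' processing notes name the build TAIR10 and DESeq2. Neither the aligner nor the counting tool or annotation is given in the sources used here. Each file ends with 5 lines that name no gene, 9.30% to 10% of all counted reads. They stayed out of library sizes and tests.

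The test of the counts was edgeR 4.0.16 under R 4.3.3 (default filter with a minimum count of 10 and total of 15, TMM scaling with factors from 0.984 to 1.03, quasi-likelihood F test of genotype without covariates, Benjamini-Hochberg adjustment over the 19919 genes kept). The fit has 2 residual degrees of freedom, and moderation added a prior of 2.36. DESeq2 1.42.0 (Wald test) was the other count test. It gave an adjusted p for 20304 genes. Each SE was taken as the fold change on the log2 scale over the square root of F. Nothing in the labels says the plants of a genotype were grown apart, so p-values measure the spread between these plants.

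The labels number the plants 1 and 2 in both genotypes. Their deviations from the genotype means correlated at -0.386 over 19919 genes, so no pairing was used. Names, transcript lengths (of the longest annotated transcript of each gene) and sequences came from RefSeq TAIR10.1, where 32548 of 33977 rows matched. Of the 32 genes, 11 overlap another annotated gene, where unstranded counts are uncertain. The members and lists were chosen with earlier results of these data known. All 32 genes may be named, and values in every plant are given for the 6 pairs and, per role, for the 3 genes with the smallest p and the 1 with the lowest fold change. Of each other list, up to 3 genes by smallest p are named. Scripts were tested on simulated data. Alternatives were other scalings and filters, DESeq2, limma 3.58.1 with voom, replicate blocks, an adjusted p of 0.10 and each plant left out.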

Additional observations from a re-analysis of the deposited data

How the results depend on the processing

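With 2 plants per genotype, the number of genes called turned on the test. Of all genes, edgeR called 1 at an adjusted p of 0.05, and it called 13 with no filter on low counts, 0 with a filter of 5 CPM and 4129 at an adjusted p of 0.10. DESeq2 called 3681. With the replicate number as a block edgeR called 0, and with the crossed replicate block, added after the data were seen, 137. Limma with voom, also added, called 0. Of the 32 genes edgeR called 0, and this held with either block, limma, and every scaling and filter. At an adjusted p of 0.10 it called 2, and DESeq2 called 4. DESeq2 with a plant left out, added after the data were seen, called 0 to 24 of the 32 genes, and of all genes 4510 without Col-0 plant 1, 513 without Col-0 plant 2, 1742 without PPD3_OE plant 1 and 957 without PPD3_OE plant 2. In edgeR with a plant left out, 0 of all genes were called each time.

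The number of genes with both PPD3_OE plants above the Col-0 plants, 18 with all plants, ran from 17 without Col-0 plant 2 to 28 without Col-0 plant 1. The share over all genes also depends on the plants compared. On the scaling with all plants it was 33.9% above both Col-0 plants, 39.7% above Col-0 plant 1 and 42.8% above Col-0 plant 2. It was 16 to 18 under the other scalings and filters. The number below, 3 with all plants, was 6 without Col-0 plant 2 and 3 or 4 under the other alternatives. Of all genes with a value in every plant, 7916 of 19889 had both PPD3_OE plants below Col-0 plant 1 on the scaling with all plants. The median log2 fold change of the 32 genes ran from 0.09 to 0.49 with a plant left out, and from 0.27 to 0.33 under the alternatives that keep all 4 plants. The differences in share ran from 4.14 to 6.97 points for PSAD1, 4.47 to 6.13 for PSAE1, -7.15 to -5.04 for PSAH1, -3.10 to -1.39 for PETE1, 2.99 to 7.23 for FD1 and 2.08 to 4.11 for FNR1.

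Signs turned for genes near 0. The antenna median, -0.03, was 0.00067 under upper-quartile scaling and ran from -0.15 without Col-0 plant 2 to 0.071 without PPD3_OE plant 1, with 0.062 without Col-0 plant 1. PSAE2 was 0.016 under upper-quartile scaling and 0.0014 in limma, and ran from -0.18 without Col-0 plant 2 to 0.14 in edgeR and 0.16 in DESeq2 without Col-0 plant 1. In edgeR LHCA2 ran from -0.086 to 0.21, PSBW from -0.050 to 0.32 and PETE1 from -0.046 to 0.15, lowest without Col-0 plant 2 and highest without Col-0 plant 1. In DESeq2 without Col-0 plant 2 they were -0.070 for LHCA2, -0.033 for PSBW and -0.030 for PETE1. LHCA2 was -0.00031 in DESeq2 without PPD3_OE plant 2. The other 28 of the 32 genes kept their sign under every alternative run. The causes of these turns were not tested. Leaving out organelle genes changed nothing, as all of them are at 0.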
